A study of Mus musculus with 6 samples.

Results

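Dio2, the gene of the deiodinase that makes active thyroid hormone inside cells, is described here with 6 other genes of thyroid hormone handling in satellite cells, which are the resident stem cells of muscle. The other 6 are Dio3, which encodes the inactivating deiodinase, the hormone carrier Slc16a10, the thyroid hormone receptors Thra and Thrb, and the retinoid X receptors Rxra and Rxrb. They are 7 of the 27179 gene IDs in the count tables, each matched by its symbol, and 6 of them were among the 13202 genes with enough reads to be tested. The genes were chosen by their roles with the counts of both diets, and so the log2 fold changes of these same libraries, already known. The diet values of the 7 genes are therefore a description. Where the fit across all genes called one of them, this is stated but not counted as evidence.

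Satellite cells were sorted by flow cytometry from the muscle of wild-type C57Bl/6N mice, 3 libraries from mice on a high-fat diet and 3 from mice on chow, and their RNA was sequenced. The labels give both groups the same genotype, strain and cell type and differ in the diet alone. The study set satellite cells of obese mice beside those of lean mice. The labels used here give neither the length of the diet nor the age of the mice, and they do not say whether the 3 libraries of a diet came from separate animals. The p-values below thus set the diet difference against the spread among the libraries of a diet. That spread is not known to be one among animals, and some of it may be technical.

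Most thyroid hormone reaches cells as thyroxine, a precursor with little activity of its own. The type 2 deiodinase, Dio2, removes an outer-ring iodine to give triiodothyronine, the active hormone, and the type 3 deiodinase, Dio3, removes an inner-ring iodine and inactivates both forms. Triiodothyronine binds the receptors Thra and Thrb, which sit on DNA as partners of retinoid X receptors. In skeletal muscle and its stem cells this local switch is known to act on differentiation and repair.

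Gene counts per library ran from 14930394 to 18217818. Levels are given as CPM, counts brought to 1 common library size after TMM normalization (a trimmed mean of log ratios), and comparisons between genes as RPKM, the same value per kilobase of exon. On the leading principal component of 500 highly variable genes, high-fat diet library 1 (-43.1) and chow library 3 (60.8) lay farthest out, with the other 4 libraries between -12.3 and 6.64, so values without that pair are given where they matter. Of all tested genes, 34 passed an adjusted p of 0.05 between the diets (edgeR quasi-likelihood test, Benjamini-Hochberg adjustment), of which 12 rose and 22 fell on the high-fat diet. The 8 satellite cell markers summed to between 3858 and 4817 CPM on the high-fat diet and between 3958 and 4740 CPM on chow, led by Sdc4, so that the markers of the labelled cell type were present in all 6 libraries. Within that sum single markers differed in direction. Pax7, the defining transcription factor, stood at 171, 247 and 283 CPM on the high-fat diet and at 370, 405 and 430 CPM on chow (log2 difference -0.78, standard error 0.20, adjusted p = 0.180, edgeR). Itga7 (0.59, standard error 0.19) and Chrdl2 (0.56, standard error 0.18) were higher in every high-fat diet library than in any chow library and did not pass (adjusted p = 0.328 and 0.373, edgeR). The groups of every other satellite cell marker overlapped. Of all tested genes, 15.3% had groups that did not overlap, in either direction. The part of the satellite cell markers in the Dio2 difference was not tested.

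Dio2 lies on chromosome 12 from position 90724552 to 90739038 of GRCm38 and is read from the minus strand. The 250 bases before its start are shown because regulators of this gene are known to act there. The sequence is RefSeq's, build GRCm38.p6, chr12:90739039-90739288, written 5′ to 3′ along the gene's strand, with the cAMP response element motif TGACGTCA in capitals.
Dio2 promoter: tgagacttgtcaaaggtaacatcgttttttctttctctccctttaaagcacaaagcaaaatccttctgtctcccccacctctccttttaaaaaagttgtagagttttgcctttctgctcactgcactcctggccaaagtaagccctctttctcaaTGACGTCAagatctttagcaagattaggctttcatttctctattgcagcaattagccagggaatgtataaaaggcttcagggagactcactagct
TGACGTCA is the full palindrome that CREB, the factor activated by cyclic AMP, is known to bind, and it was found once, from 95 to 88 bases before the start. Of 32851 mouse promoter windows of the same length, 1.55% held this motif on either strand. The shorter TGACG was found in 2 places, 1 on each strand, both inside the palindrome, and 17.8% of the windows held it. The forkhead motif TGTTTAC, held by 3.17% of the windows, was not found, nor was the classical thyroid hormone response element, AGGTCA and a second AGGTCA after any 4 bases, held by 0.0152%. Of the other members with an entry, Thrb, Rxra and Rxrb have 2 windows each, and matches were added over the windows of a gene. Thrb and Rxrb each had 1 TGACG, and Rxrb had 1 TGTTTAC. These are matches of letters in a short window and say nothing about binding in these cells.

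Dio2 stood at 367, 201 and 191 CPM in high-fat diet libraries 1, 2 and 3. In chow libraries 1, 2 and 3 it stood at 48.7, 20.1 and 30.6 CPM. The lowest high-fat diet library was thus well above the highest chow library, and the groups did not overlap. The means were 253 ± 98.9 CPM on the high-fat diet and 33.1 ± 14.5 CPM on chow (SD, n = 3 each), a 7.63-fold difference. On the log2 scale the difference was 2.93 with a standard error of 0.34.

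Dio2 was the single member called between the diets, 1 of 6 tested, where 0.258% of all tested genes were called in either direction and 0.0909% as higher. Dio2 and Slc16a10, 2 of the 6 members, had an unadjusted p under 0.05, where 7.65% of all tested genes did. The groups did not overlap for 1 of the 6 members, Dio2, where 7.42% of all tested genes were higher and 7.87% lower without overlap. Because that contrast was known when the members were chosen, nothing is read from these counts. In size, 311 tested genes had a larger absolute log2 fold change than Dio2. The reads behind it numbered 5643, 3142 and 3542 on the high-fat diet and 776, 345 and 533 on chow.

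The spread of Dio2 within each diet was set beside that of other genes. Its coefficient of variation was 39.1% on the high-fat diet. The median was 16.6% over 1036 genes whose mean over both diets lay within 1.5-fold of its own, 143 CPM. On chow it was 43.7%, against 15.9% over the same genes. That set does not match the chow level of Dio2, 33.1 CPM, and scarcer genes varied more. On chow the median was 34.9% for genes around 24.1 CPM and 23.8% for genes around 56.0 CPM, so 15.9% is too low a reference there. The high library was high-fat diet library 1, which is also the library that stood farthest out among the high-fat diet libraries. Without it the log2 difference was 2.58, and over the 6 fits that each left out 1 library it lay between 2.58 and 3.32 and was called each time. Without both high-fat diet library 1 and chow library 3 it was 2.52 and was not called (2 libraries per diet).

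**Figure D1:**
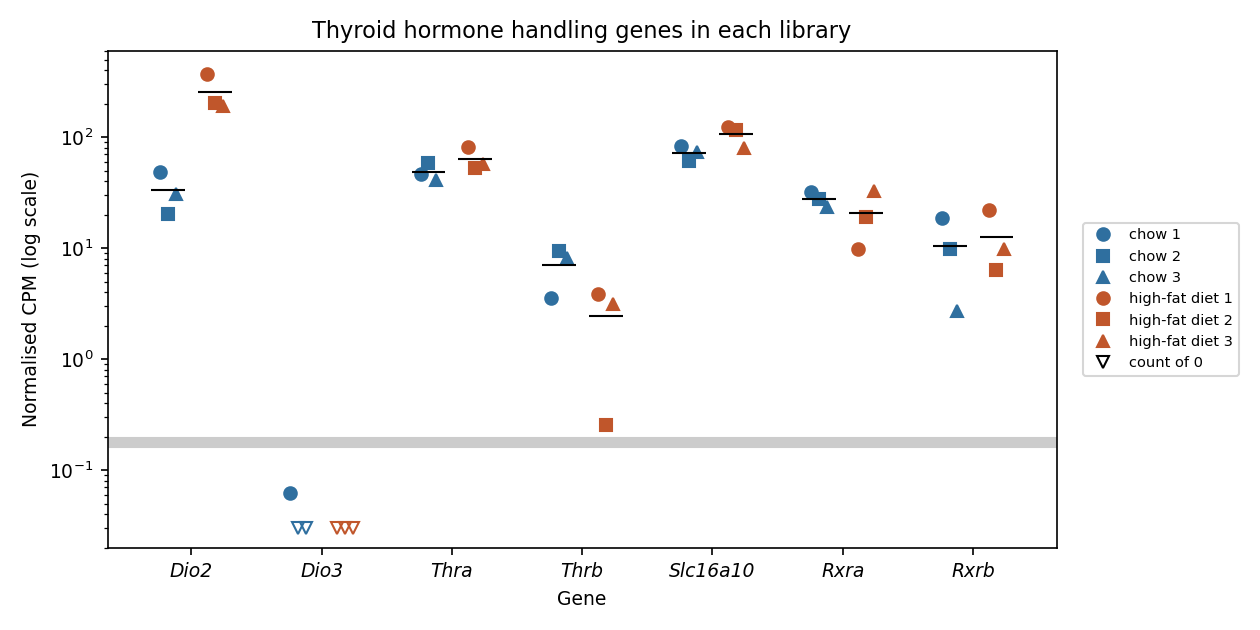
Levels of the 7 genes in each library, in CPM on a log axis, with high-fat diet and chow libraries marked by colour, means as black lines and counts of 0 as open triangles. The grey band is the level of 3 reads (0.162 to 0.195 CPM); Dio2 is the gene whose groups stand apart, at 191 to 367 CPM against 20.1 to 48.7 CPM.

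Dio3, on chromosome 12 from 110279230 to 110281097, works against Dio2 by inactivating the hormone. It had 0 reads in the 3 high-fat diet libraries and in chow libraries 2 and 3, and 1 read in chow library 1, which is 0.0628 CPM. A count of 0 allows up to 3 reads, or 0.162 to 0.195 CPM depending on the library, so Dio3 was not detectable at this depth with either diet and could not be compared. Such limits cover counting error only. Dio1, the third deiodinase, had 1 read over all 6 libraries. Of the 6 genes of that list (Dio1, the cytosolic binder Crym and the blood carriers), 0 had enough reads to be tested.

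Thra and Thrb encode the receptors that triiodothyronine binds. Thra, on chromosome 11 from 98740776 to 98769006, stood at 80.7, 53.0 and 57.2 CPM on the high-fat diet. On chow it stood at 46.1, 58.1 and 41.1 CPM, and the groups overlapped. The means were 63.6 ± 14.9 and 48.4 ± 8.74 CPM (SD, n = 3 each), a log2 difference of 0.39 with a standard error of 0.29. High-fat diet library 1 was again the highest, and without it and chow library 3 the difference was 0.09.

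Thra carries a further uncertainty, because 263 bases of its exons, 5.7% of their length, overlap those of Nr1d1, a clock repressor read from the opposite strand. Nr1d1 was much the more abundant of the pair, at 548, 428 and 451 CPM on the high-fat diet and 435, 352 and 348 CPM on chow. Its log2 difference was 0.33 with a standard error of 0.17 and did not pass (adjusted p = 0.706, edgeR). Whether the counting used strand is not given in the sources used here, so reads in the shared stretch cannot be told apart. For Dio2 the GENCODE M21 annotation gives 100 shared exon bases (1.72%) with the predicted gene Gm26512. In that annotation Dio2 ends at 90738438, short of the RefSeq end given above. The exons of the other members overlap no other gene.

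Thrb, on chromosome 14 from 17659225 to 18040097, was far scarcer. It stood at 3.90, 0.256 and 3.13 CPM on the high-fat diet and at 3.58, 9.50 and 8.21 CPM on chow. The groups overlapped through chow library 1, and high-fat diet library 2 lay near the level of 3 reads. The means were 2.43 ± 1.92 and 7.10 ± 3.12 CPM, a log2 difference of -1.54 with a standard error of 1.29. Per kilobase of exon, Thra exceeded Thrb in every library, 33.2, 333 and 29.3 times on the high-fat diet and 20.7, 9.80 and 8.02 times on chow. These ratios do not overlap between the diets, but the value of 333 rests on the few Thrb reads of high-fat diet library 2.

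Slc16a10 encodes a carrier of aromatic amino acids that also moves thyroid hormone across the cell membrane. On chromosome 10 from 40033532 to 40142270, it stood at 125, 116 and 80.2 CPM on the high-fat diet. It stood at 83.7, 60.5 and 73.2 CPM on chow, and high-fat diet library 3 fell inside the chow range. The means were 107 ± 23.6 and 72.5 ± 11.6 CPM, a log2 difference of 0.56 with a standard error of 0.25, and the gene was not called. It tracked Dio2 across the 6 libraries more closely than any other member did, with a Pearson r of 0.876 between log2 CPM values. After the mean of each diet was subtracted, r was 0.791, against 0.543 for Rxrb, 0.184 for Thra, 0.037 for Thrb and -0.478 for Rxra. These correlations describe 6 libraries that share their sequencing depth and scaling.

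The retinoid X receptors form the other side of the receptor pair on DNA. Rxra, on chromosome 2 from 27676445 to 27763319, stood at 9.82, 19.2 and 32.7 CPM on the high-fat diet and at 31.8, 27.6 and 23.7 CPM on chow. The high-fat diet libraries spanned the whole chow range, so the groups overlapped. The means were 20.6 ± 11.5 and 27.7 ± 4.09 CPM, a log2 difference of -0.43 with a standard error of 0.49. A single library moved this value, which was -0.08 without high-fat diet library 1 and -0.93 without high-fat diet library 3.

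Rxrb, on chromosome 17 from 34031812 to 34038403, stood at 22.0, 6.40 and 9.76 CPM on the high-fat diet and at 18.5, 9.91 and 2.70 CPM on chow. Both diets ran from low to high, and the means were 12.7 ± 8.20 and 10.4 ± 7.92 CPM. The log2 difference was 0.29 with a standard error of 0.80. It turned to -0.35 without high-fat diet library 1, to -0.16 without chow library 3 and to -0.80 without both, and was 1.01 without chow library 1, so no direction is given for Rxrb. The ratio of Rxra to Rxrb per kilobase of exon was 0.325, 2.18 and 2.44 on the high-fat diet and 1.25, 2.03 and 6.38 on chow, and Rxrb exceeded Rxra in high-fat diet library 1 alone.

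Set beside each other per kilobase of exon, the members changed their order with the diet. On the high-fat diet Dio2 stood first at 43.5 ± 17.0 RPKM, above the range of every other member. Slc16a10 (14.5 ± 3.20 RPKM) and Thra (13.8 ± 3.24 RPKM) overlapped each other, as did Rxra (3.77 ± 2.10 RPKM) and Rxrb (3.20 ± 2.06 RPKM), and Thrb followed at 0.328 ± 0.260 RPKM. On chow the first place was Thra's at 10.5 ± 1.89 RPKM, and Slc16a10 at 9.85 ± 1.58, Dio2 at 5.70 ± 2.49, Rxra at 5.07 ± 0.748, Rxrb at 2.61 ± 1.99 and Thrb at 0.959 ± 0.421 RPKM came after it. In that order each gene's range overlapped its neighbour's. Dio3 came last with either diet.

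The ratio of Dio2 to Thra per kilobase was 3.61, 3.01 and 2.65 on the high-fat diet and 0.839, 0.275 and 0.591 on chow. Dio2 was thus above Thra in all 3 high-fat diet libraries and below it in all 3 chow libraries. Among 11869 tested genes with a known exon length, the mean RPKM of Dio2 stood at percentile 94.8 on the high-fat diet and at 63.1 on chow.

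A wider set of 139 genes of the pathway other than the members was examined in 11 lists, of which 115 genes were tested. With edgeR, 0 of them rose and 2 fell at an adjusted p of 0.05, Nr4a1 and Fos, where 0.0909% and 0.167% of all tested genes did. At an unadjusted p under 0.05 the counts were 6 higher and 20 lower, where 3.7% and 3.95% of all tested genes were. The median log2 difference over the 115 genes was -0.14, and that over all tested genes was -0.01. DESeq2 called 9 of the 115 and limma-voom 6. Over all genes, DESeq2 called 279 of the 19427 it was given, with no filter on low counts, and limma-voom 99 of 13202.

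**Figure D2:**
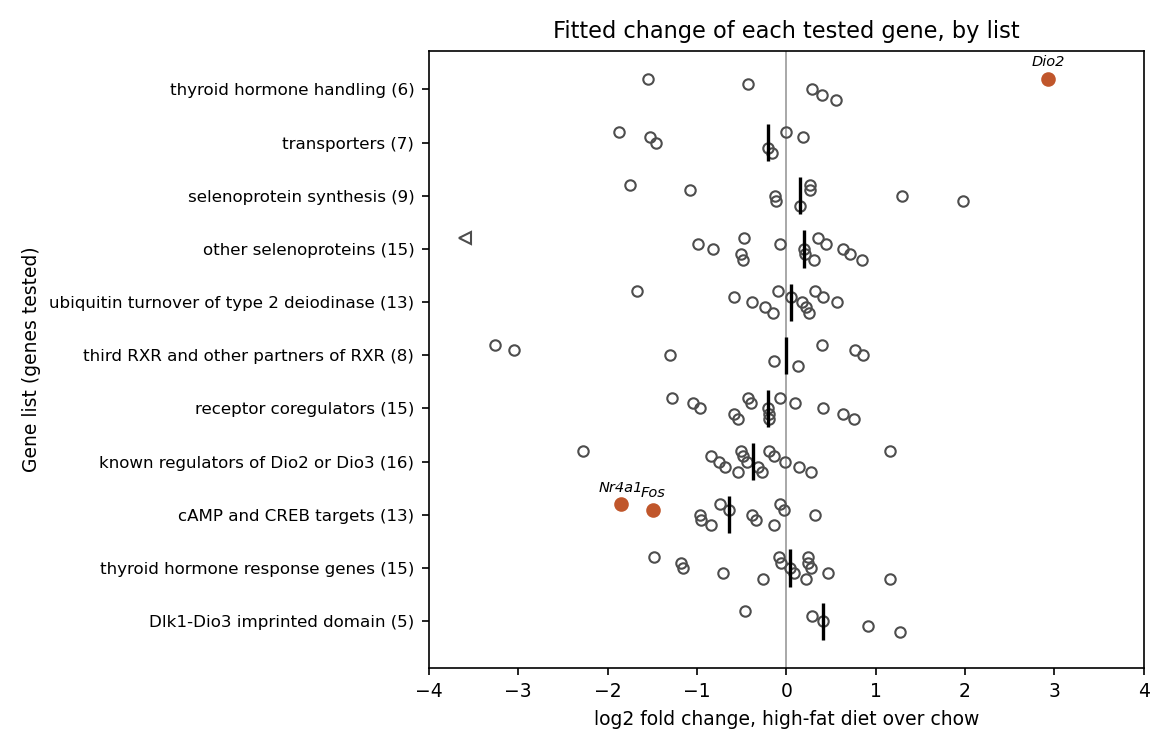
Log2 difference between high-fat diet and chow for each tested gene of the pathway lists, with called genes filled, other genes open and list medians as black bars (none drawn for the 7 chosen genes, in the top row); Selenoh lies beyond the scale and is shown as a triangle. Nr4a1 (-1.85) and Fos (-1.49) in the cAMP list are the called genes besides Dio2 (2.93), and the median of that list is the lowest, at -0.65.

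Other thyroid hormone transporters did not pass. Of 7 tested, 0 were called by edgeR and 1 each by DESeq2 and limma-voom (Slc7a8), with 2 lower at an unadjusted p under 0.05. Slc7a8, the LAT2 amino acid exchanger that also carries thyroid hormone, stood at 55.0, 22.2 and 35.9 CPM on the high-fat diet and at 109, 103 and 99.1 CPM on chow, so the groups did not overlap. Its log2 difference was -1.46 with a standard error of 0.32 (adjusted p = 0.103, edgeR). Slc7a5, the LAT1 chain of an amino acid exchanger that carries thyroid hormone too, was the most abundant of this list, at 73.6 RPKM on the high-fat diet and 73.8 RPKM on chow. The organic anion carriers Slco4a1 (log2 difference -1.87, standard error 0.84) and Slco2b1 (-1.53, standard error 0.77) had wide errors (adjusted p = 0.632 and 0.698, edgeR). The difference of Slco4a1 was -0.81 without chow library 1 and -2.68 without high-fat diet library 2.

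Deiodinases are selenoproteins, made by a dedicated machinery that reads a stop codon as selenocysteine. Of 9 tested genes of that machinery, 0 were called by any of the 3 tools and 1 was higher at an unadjusted p under 0.05. That gene was Sephs2, which makes the selenium donor, at 46.8, 29.7 and 32.3 CPM on the high-fat diet and 19.0, 15.2 and 10.3 CPM on chow. The groups did not overlap, and the log2 difference was 1.29 with a standard error of 0.44 (adjusted p = 0.402, edgeR). The elongation factor Eefsec (1.97, standard error 1.36) and the transfer RNA modifier Trit1 (-1.08, standard error 0.79) were low and variable. Without chow library 2 the difference of Eefsec was 3.07, and without chow library 3 that of Trit1 was -0.06. The value of 3.07 rests on 4 Eefsec reads in chow library 1 and 28 in chow library 3.

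Of 15 other selenoproteins, all tested, 0 were called by any of the 3 tools and 2 were lower at an unadjusted p under 0.05, and the median log2 difference was 0.20. Selenok, a protein of the endoplasmic reticulum membrane, had means of 28.6 ± 8.13 and 56.6 ± 14.1 CPM, a log2 difference of -0.99 with a standard error of 0.35 (adjusted p = 0.435, edgeR). Selenoh was at 0, 0.384 and 0 CPM on the high-fat diet and at 4.27, 2.33 and 8.44 CPM on chow. Its high-fat diet libraries lie at or near the level of 3 reads, and its fitted fold change is not given. Selenop, the plasma carrier of selenium, had means of 267 ± 80.4 and 209 ± 15.6 CPM, with a log2 difference of 0.35 and a standard error of 0.21.

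Type 2 deiodinase protein is known to be short-lived because it is marked with ubiquitin and degraded, a step these RNA measurements do not see. Of 13 tested genes of that route, 0 were called by edgeR, 1 each by DESeq2 and limma-voom (Wsb1), and 1 was lower at an unadjusted p under 0.05. Wsb1, the adaptor that brings Dio2 protein to its ubiquitin ligase, stood at 494, 446 and 518 CPM on the high-fat diet and at 679, 664 and 846 CPM on chow. The groups did not overlap, and the log2 difference was -0.59 with a standard error of 0.16 (adjusted p = 0.224, edgeR). The ubiquitin-conjugating enzymes Ube2j1 (0.41, standard error 0.20) and Ube2g2 (0.57, standard error 0.43, and 1.25 without chow library 1) did not pass either.

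Retinoid X receptors also pair with receptors for retinoic acid, vitamin D, fatty acids and oxysterols, which compete for them. Of 8 tested genes among these partners and the third retinoid X receptor, 0 were called by edgeR, 1 by DESeq2 (Rara) and 0 by limma-voom, with 1 higher at an unadjusted p under 0.05. Rara, a retinoic acid receptor, stood at 86.2, 92.7 and 102 CPM on the high-fat diet and at 52.0, 50.4 and 52.3 CPM on chow. The groups did not overlap and the replicates lay close together, with a log2 difference of 0.86 and a standard error of 0.24 (adjusted p = 0.258, edgeR). Ppara and Nr1h3 reached at most 1.53 CPM in any high-fat diet library and between 0 and 11.8 CPM on chow, too low to compare.

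Receptors act through corepressors and coactivators. Of 15 tested coregulators, 0 were called by edgeR, 1 by DESeq2 (Nrip1) and 0 by limma-voom, with 1 higher and 3 lower at an unadjusted p under 0.05. Nrip1, a ligand-dependent corepressor, stood at 57.8, 58.2 and 51.2 CPM on the high-fat diet and at 120, 111 and 114 CPM on chow. Its log2 difference was -1.04 with a standard error of 0.23 (adjusted p = 0.102, edgeR), and the groups did not overlap. The coactivators Ncoa1 (-0.58, standard error 0.18) and Ncoa3 (-0.54, standard error 0.21) were also lower in every high-fat diet library than in any chow library, and did not pass (adjusted p = 0.321 and 0.517, edgeR).

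Known regulators of the deiodinase genes include adrenergic and bile acid receptors that raise cyclic AMP, forkhead factors, hedgehog signalling and C/EBP factors. Of 16 tested, 0 were called by edgeR and 1 each by DESeq2 and limma-voom (Cebpb), with 3 lower at an unadjusted p under 0.05. The median log2 difference was -0.38 and 13 of the 16 were negative. Of all tested genes, 3.95% were lower at that unadjusted p and 50.5% were negative. Cebpb stood at 427, 434 and 423 CPM on the high-fat diet and at 790, 767 and 513 CPM on chow (log2 difference -0.69, standard error 0.18, adjusted p = 0.199, edgeR). The groups did not overlap. Foxo1 had a log2 difference of -0.75 with a standard error of 0.22, and Foxo3, the forkhead factor known to act on Dio2 in muscle stem cells, one of -0.49 with a standard error of 0.32 and overlapping groups.

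Genes that cyclic AMP and CREB are known to induce formed the list with the calls. Of 13 tested, Nr4a1 and Fos fell, 0 rose, 7 were lower at an unadjusted p under 0.05, and 12 of the 13 log2 differences were negative, with a median of -0.65. Over all tested genes, 3.95% were lower at that p and 50.5% were negative. Nr4a1, an immediate early nuclear receptor, stood at 155, 195 and 259 CPM on the high-fat diet and at 596, 844 and 765 CPM on chow. It fell by 1.85 on the log2 scale, with a standard error of 0.21 (adjusted p = 0.00297, edgeR), and without high-fat diet library 1 and chow library 3 it did not pass (adjusted p = 0.141). Fos, the immediate early AP-1 subunit, stood at 922, 506 and 1031 CPM on the high-fat diet and at 2348, 2310 and 2232 CPM on chow. It fell by 1.49 with a standard error of 0.21 (adjusted p = 0.00947, edgeR), and it did not pass without chow library 3 (adjusted p = 0.0641) or without that pair (adjusted p = 0.170). Both genes also respond to many signals other than cyclic AMP, and their groups did not overlap. Nr4a2, another member of the Nr4a family, had a log2 difference of -0.95 with a standard error of 0.31 (adjusted p = 0.373, edgeR). Crem, whose short inducible form is a classical cyclic AMP target, was at 83.5 ± 9.53 and 92.0 ± 24.9 CPM, a log2 difference of -0.14 with a standard error of 0.26.

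Thyroid hormone response genes showed no common direction. Of 24 listed, 15 were tested and 0 were called by edgeR, 2 by DESeq2, Cpt1a among them, and 1 by limma-voom, with 1 higher and 2 lower at an unadjusted p under 0.05. The median log2 difference was 0.04, 8 were positive and 7 negative. Klf9, a direct target in many tissues, was at 428 ± 12.9 and 512 ± 66.5 CPM, with a log2 difference of -0.26 and a standard error of 0.16. Hr, another direct target, was at 101 ± 23.9 and 106 ± 18.2 CPM, with a log2 difference of -0.06 and a standard error of 0.25. Neither gene passed the test, and the groups overlapped for both.

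Cpt1a, the enzyme that admits fatty acids to mitochondria, stood at 199, 139 and 103 CPM on the high-fat diet and at 90.7, 58.8 and 47.4 CPM on chow. Its log2 difference was 1.16 with a standard error of 0.30 (adjusted p = 0.187, edgeR), and the groups did not overlap. It is also a target of fatty acid receptors. Myod1, the myogenic factor that thyroid hormone is known to raise, stood at 315, 171 and 131 CPM against 391, 332 and 282 CPM, with overlapping groups and a log2 difference of -0.70 (standard error 0.27).

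The neighbours of Dio2 on the chromosome did not pass the test. Of the 4 nearest tested genes on each side, 0 of 8 were called by edgeR, and 1, Gtf2a1, had an unadjusted p under 0.05. The nearest with many reads was Cep128, a centriole gene with its midpoint 460 kb away, at a log2 difference of -0.07 with a standard error of 0.41. Tshr, the thyrotropin receptor, lay 739 kb away at -0.44 with a standard error of 0.57. Gtf2a1, a subunit of a general transcription factor 841 kb away, was at -0.86 with a standard error of 0.32, and Ston2, an endocytic adaptor 978 kb away, at 0.47 with a standard error of 0.22. On the other side the nearest tested genes lay at -2321 kb or farther (negative distances are towards lower positions) and had few reads, with standard errors from 1.94 to 2.24.

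**Figure D3:**
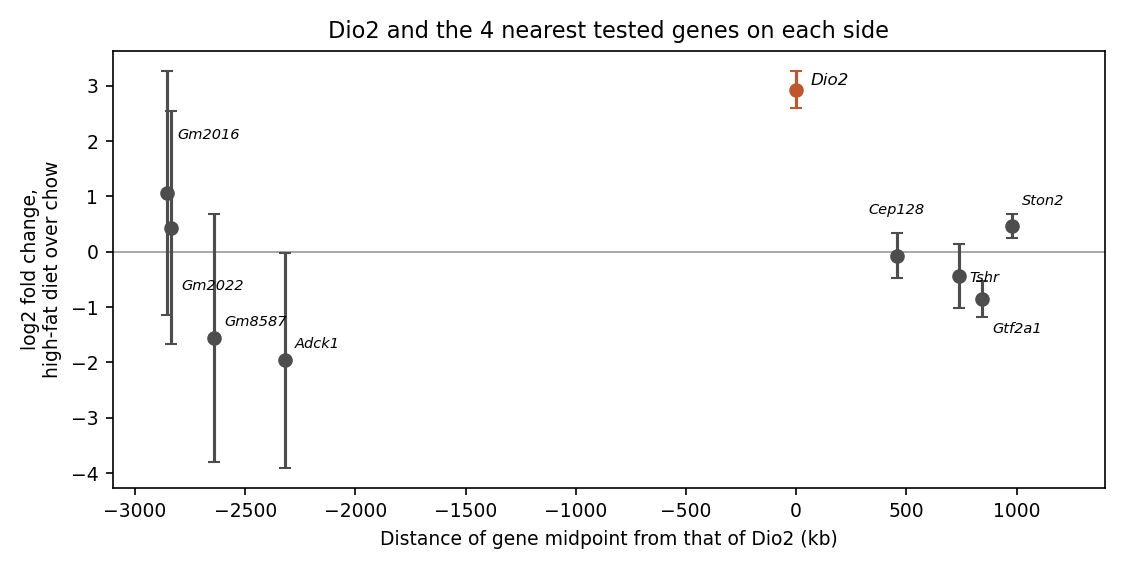
Log2 difference between high-fat diet and chow (points, with the standard error as bars) against the distance in kb between the midpoint of each gene and that of Dio2. Dio2 stands at 2.93, while the 4 neighbours to the right, Cep128, Tshr, Gtf2a1 and Ston2, lie between -0.86 and 0.47.

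Dio3 lies at the edge of an imprinted domain that runs from Dlk1 through the long noncoding RNAs Meg3 and Rian. Of its 5 tested genes, 0 were called by any of the 3 tools, and 2 were higher at an unadjusted p under 0.05. Rtl1, a retrotransposon-derived gene of the paternal chromosome, stood at 46.5, 37.9 and 32.5 CPM on the high-fat diet and at 13.8, 19.8 and 14.8 CPM on chow. The groups did not overlap, and the log2 difference was 1.27 with a standard error of 0.41 (adjusted p = 0.341, edgeR). The annotated span of Rtl1 overlaps those of Meg3 and Rian, and the strand setting of the counting is not given. How many of the reads counted for Rtl1 came from those genes was not tested. Dlk1 stood between 0 and 2.12 CPM over all libraries. Rian (674 ± 93.9 and 508 ± 83.6 CPM) and Meg3 (1507 ± 194 and 1236 ± 124 CPM) were among the more abundant RNAs named here, at log2 differences of 0.41 and 0.29. The domain was thus read at its centre with both diets, while Dio3 was not detectable. The 4 nearest tested genes on each side of Dio3 included Mirg (0.91, standard error 0.60), Ppp2r5c (0.03, standard error 0.40) and Dync1h1 (0.25, standard error 0.15), and 0 of 8 were called.

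The genes whose pattern was most like that of Dio2 were named from 10878 tested genes that have a symbol and average 2 CPM or more. Predicted genes, RIKEN clones and pseudogenes were left out of that number. Over the 6 libraries, the highest Pearson r of log2 CPM was that of Bmpr2, a BMP receptor, at 0.997, followed by Gnl1 at 0.995, Gnai1 at 0.986, Fads3 at 0.986 and Angptl4 at 0.985. Bmpr2 stood at 386, 352 and 342 CPM on the high-fat diet and at 295, 259 and 274 CPM on chow, the same order of libraries as Dio2 at a far smaller scale. With 6 libraries, 51 of the 10878 genes had an r above 0.95. After subtraction of the diet means the highest were Clint1 at 0.994, Ncbp1 at 0.993, Ccng1 at 0.990, Bmpr2 at 0.990 and Rpl3 at 0.989, and Bmpr2 is the gene named by both measures.

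**Figure D4:**
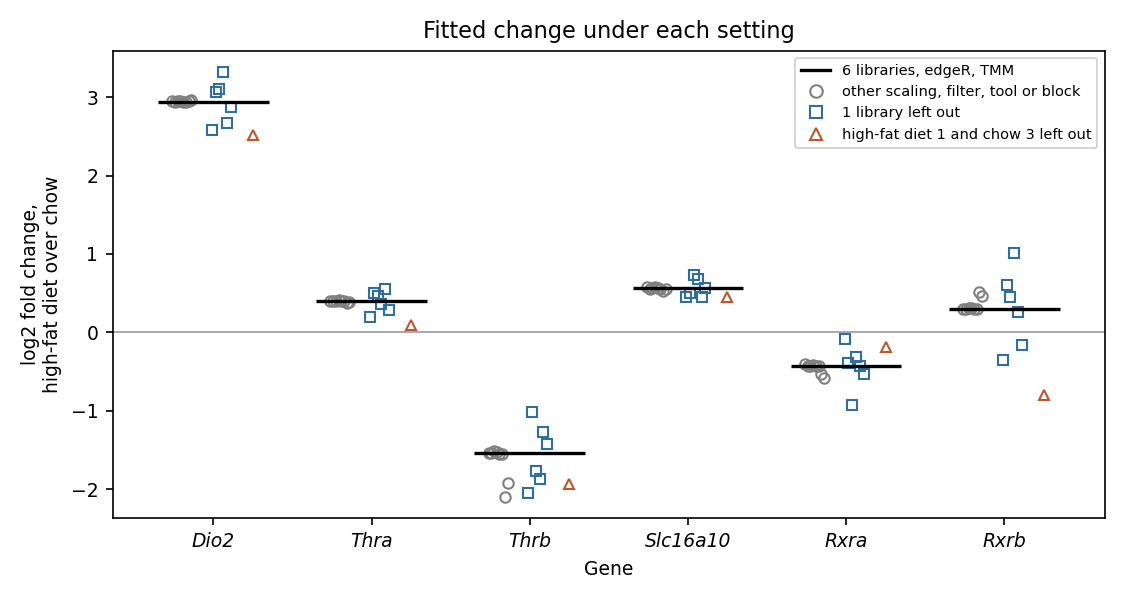
Log2 difference between high-fat diet and chow for the 6 tested members under the reported analysis and 15 alternatives (other scalings, filters and tests, a replicate block, and libraries left out). Dio2 stays between 2.52 and 3.32, whereas Rxrb lies on either side of 0.

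Markers of other cells that a sort could hold had lower sums than the satellite cell markers, and 0 of them were called in any list by edgeR. Single genes were not all low, and Dpt, a fibro-adipogenic marker, stood at 382, 306 and 332 CPM on the high-fat diet and at 338, 198 and 206 CPM on chow, above Pax7 in each high-fat diet library. The fibro-adipogenic progenitor markers together summed to between 467 and 660 CPM on the high-fat diet and between 359 and 513 CPM on chow. The highest sum, 660 CPM, was that of the library with the most Dio2, high-fat diet library 1. The satellite cell markers also had their highest sum in that library, at 4817 CPM. Schwann and perineurial markers, led by Slc2a1, were the list whose sums did not overlap, at 48.5 to 77.8 CPM on the high-fat diet and 82.3 to 99.98 CPM on chow. Without Slc2a1 the sums overlapped, at 27.8 to 51.2 CPM and 20.5 to 67.0 CPM, a sum chosen after the values were seen. Endothelial markers, led by Cdh5, lay between 43.1 and 169 CPM against 64.4 and 125 CPM. Of these Kdr did not overlap between the diets, at 24.3, 23.8 and 39.3 CPM on the high-fat diet and 11.9, 13.7 and 7.29 CPM on chow. It did not pass (adjusted p = 0.442, edgeR), and the groups of every other endothelial marker overlapped. Smooth muscle and pericyte markers, led by Acta2, lay between 67.9 and 158 CPM against 110 and 184 CPM. Tendon (led by Mkx, 22.7 to 53.2 CPM over all libraries), leukocyte (led by Cd68, 7.61 to 48.9 CPM), myofibre (led by Tnnt3, 9.85 to 27.2 CPM) and adipocyte markers (led by Adipoq, 0 to 7.79 CPM) were lower still, with Adgre1, C1qa, Plin1 and Lep at 0 in every library. The sums of these lists overlapped between the diets. Mkx (means 6.43 and 15.7 CPM) and Tnnt3 (3.54 and 11.3 CPM) were lower in every high-fat diet library than in any chow library. Neither passed (adjusted p = 0.768 and 0.765, edgeR). The part of all these cell type markers in the Dio2 difference was not tested. In sorted bulk RNA, a change in the share of cells that carry a transcript and a change in its amount per cell cannot be told apart.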

How the data were processed

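RNA-seq libraries of sorted satellite cells were grouped by the diet in their labels, 3 per diet. The deposited values are whole-number counts per Entrez gene ID with no normalization. Per the submitters' processing notes, Bowtie2, featureCounts and the builds GRCm38 and mm10 were used. Versions, the strand setting and the handling of multiply mapped reads are not given in the sources used here.

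Of 27179 IDs, 25275 were matched to a symbol in RefSeq GRCm38.p6 and 18 more through GENCODE M21. Coordinates and promoters come from RefSeq, and exon lengths and exon overlaps from GENCODE M21. The ends of a gene can differ between the sources, as they do for Dio2 and Thrb. Thra had no promoter entry. Total counts per library ran from 14930394 to 18217818, so that 3 reads, the floor for a count of 0, are 0.162 to 0.195 CPM.

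The analysis ran in edgeR 4.0.16 (R 4.3.3; limma 3.58.1): filterByExpr (minimum count 10), TMM scaling, and the two-sided quasi-likelihood F test over 13202 genes, with a single factor for diet. Genes were called at a Benjamini-Hochberg adjusted p under 0.05. The standard error is the absolute log2 difference divided by the square root of F. For correlations, a prior count of 2 entered the log2 CPM. The procedure was tested on simulated data. Every pair of libraries differed by more than sampling noise. Alternatives were 3 scalings, 2 filters, DESeq2 1.42.0, limma-voom, a replicate block, and leaving out each library or the pair that stood apart.

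The members and lists were chosen with earlier results of these data known. Named were the 7 members, the 3 genes with the smallest p of each list and any called gene, genes overlapping a member, the 4 nearest tested genes on each side of Dio2 and Dio3, the 5 genes most like Dio2 by each measure, and the most abundant marker of each cell type. Slc7a5, Foxo3, Crem, Klf9, Hr, Dlk1, Pax7, Itga7, Chrdl2, Kdr and markers at 0 were named after their values were seen. Some genes that this rule names are not reported here.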

Additional observations from a re-analysis of the deposited data

How the results depend on the processing

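Dio2 was higher under all 15 alternatives, with log2 differences from 2.52 to 3.32, and called in 14. Without both high-fat diet library 1 and chow library 3, 0 members, 0 pathway genes and 1 gene in all were called, from 2 libraries per diet. The other tested members kept their sign in 15 of 15 alternatives except Rxrb, which kept it in 12 and took -0.35 without high-fat diet library 1, -0.16 without chow library 3 and -0.80 without both. The 34 genes called became 163 with no filter, 279 with DESeq2 and 99 with limma-voom, and the 2 pathway genes became 8, 9 and 6. Leaving out 1 library gave 9 to 44 genes (18, 9 and 44 without high-fat diet libraries 1, 2 and 3, and 19, 10 and 10 without chow libraries 1, 2 and 3), 1 to 1 members and 1 to 3 pathway genes. No scaling moved the median of all genes by over 0.1. Same-numbered libraries did not deviate together (correlations 0.0245, 0.0346 and -0.0261), so the numbers are not taken as pairs, and with the replicate block 45 genes, 1 member and 3 pathway genes were called. The cause of these shifts was not tested. Of 449 values of named pathway genes under the alternatives, 428 kept their direction and call, 18 passed where they had not, 3 no longer passed and 0 reversed. Depth limits Dio1, Dio3, Thrb, Selenoh, Eefsec, Ppara, Nr1h3 and Dlk1, which fall to or near the level of 3 reads in at least 1 library.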
